A study of Mus musculus with 43 samples.

Results

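Ammonia production and glutamine handling were followed through 7 genes in tubules of female mice. The genes were Slc38a3 (glutamine entry), Gls2 and Glud1 (release of ammonia), Glul (resynthesis of glutamine), Aldh18a1 (the branch from glutamate to proline) and the ammonia channels Rhbg and Rhcg. They were picked by symbol from 54532 genes, each was found at 1 gene ID, and all 7 IDs carried the same symbol in a reference table of names. The RNA-seq libraries, sequenced messenger RNA of kidney tubules, came from female C57BL/6 mice, 6 to 8 weeks old, whose tubules had been separated by microdissection into S1, S2 and S3, the successive parts of the proximal tubule, with 2 to 5 tubules per library. The labels name no other treatment or genetic change, and they list 6 libraries for S1, 6 for S2 and 7 for S3. Expression was deposited as TPM (each gene's share of all transcripts, scaled to a common total and corrected for length) with 1 value per gene and segment for all libraries together, so there was no replicate check, no test and no known depth. Where 3 values follow a gene without segment names, they are in the order S1, S2, S3. If the number in a library's title marks the animal, which the labels do not say, the S1 libraries carry numbers 4 and 5, those of S2 carry 1, 2 and 3, and those of S3 carry 2, 3, 4 and 5. By that reading S1 and S2 shared no animal, and their differences cannot be told apart from differences between animals.

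The proximal tubule is the main renal source of ammonia. Glutamine is taken into the cell, glutaminase in the mitochondria removes its amide nitrogen as ammonia, and glutamate dehydrogenase can release the amino nitrogen as well. The carbon left as oxoglutarate passes through the citrate cycle to phosphoenolpyruvate and glucose, which yields bicarbonate, and this route is known for its increase in acidosis. Glutamine synthetase runs the opposite reaction and uses ammonia up.

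The members fell into 3 kinds of profile. Glul and Glud1 were abundant and nearly level along the tubule, Slc38a3 was close to 0 in S1 and abundant in S2 and S3, and the other 4 genes stood at 1.2 TPM or less in every segment. Genes with at least 1 TPM in at least 1 segment were compared, which took 16053 genes of the table and 4 of the 7 members (Glul, Glud1, Slc38a3 and Aldh18a1). A gene counted as higher or lower when log2(TPM + 1) differed by at least 1, that is 2-fold. Of the 4 compared members, 1 (Slc38a3) was lower in S1 than in S2, where 17.7% of all compared genes were, and the same 1 was lower in S1 than in S3, where 13.1% were. None of the 4 was higher in S1 than in S2 (6.62% of all compared genes) or higher in S1 than in S3 (10.5%). None was higher in S2 than in S3 (8.74%) and none lower (2.24%). With 4 genes these counts describe the members singly and were not read as a property of the group. Quantile normalization shifted the median of all genes by 0.27 for S1 minus S2 and changed the split of all genes from 1062 higher and 2840 lower to 1471 and 1826. For S2 minus S3 it changed the split from 1403 and 359 to 884 and 517, with a shift of -0.18. Leaving out the mitochondrially encoded genes, Gpx3 and Kap, and rescaling, shifted S1 minus S2 by -0.16.

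**Figure D1:**
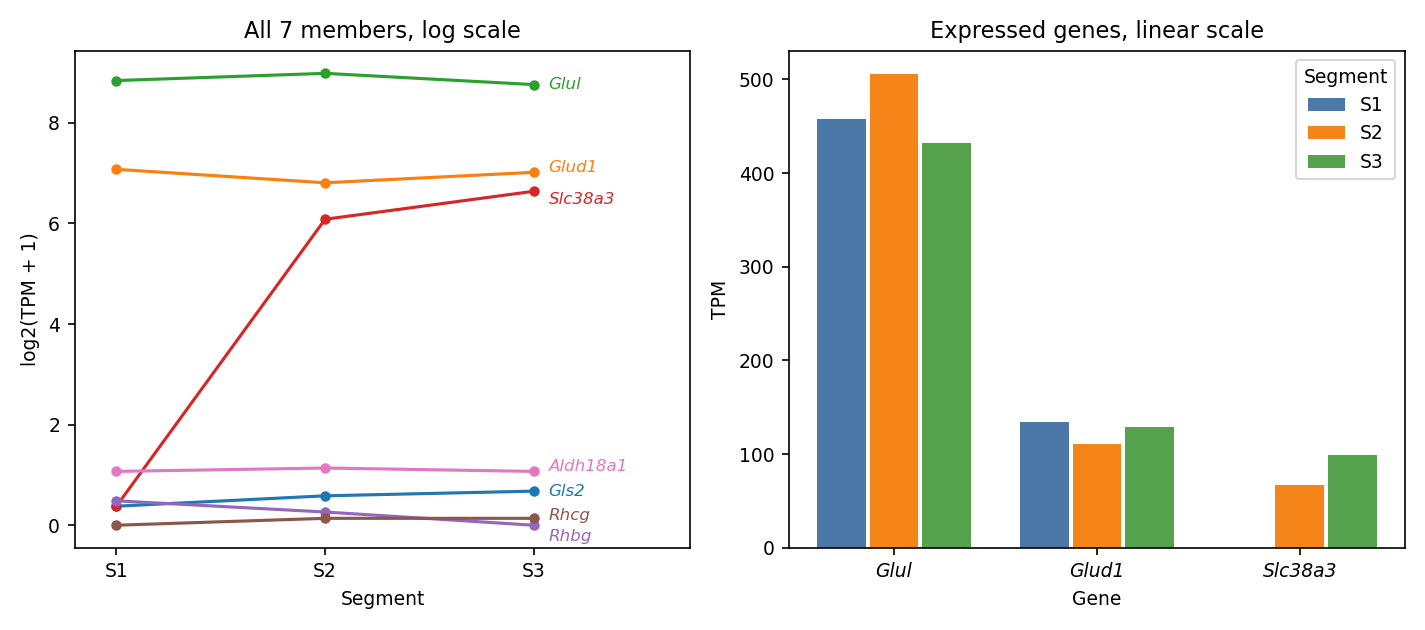
TPM of the 7 members in S1, S2 and S3, on the log2(TPM + 1) scale in the left panel (lines join the segments of a gene) and as linear bars for the 3 genes above 20 TPM in any segment in the right panel. Each point or bar is the single deposited value of a segment, so there are no error bars. Glul and Glud1 run level, while Slc38a3 goes from 0.3 TPM in S1 to 98.7 in S3.

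Slc38a3 encodes SNAT3, the sodium- and proton-coupled system N carrier that moves glutamine across the basolateral membrane (ENSMUSG00000010064, chromosome 9, 107651154 to 107668968, GRCm38.p6). It was at 0.3 TPM in S1, 66.8 TPM in S2 and 98.7 TPM in S3. S1 was the low segment, and S2 and S3 lay on the same side of it, 1.48-fold apart. The S1 value is close to the last digit of the table, which is rounded to 1 decimal. With that rounding alone the S3 level was 282 to 395 times the S1 level and the S2 level 191 to 267 times. On the log2(TPM + 1) scale S1 minus S2 was -5.70 and S1 minus S3 was -6.26. Only the size of these differences moved with the pseudocount, from -7.95 to -4.29 for S1 minus S3 over all alternatives tried. The span of Slc38a3 between its highest and lowest segment exceeded that of 99.4% of the compared genes.

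Among its own family Slc38a3 had the steepest profile of the 11 Slc38 genes in the table, a set looked up after the values had been seen. In S3 its level equalled that of Slc38a10, at 98.7 TPM each, but Slc38a10 was already at 40.4 TPM in S1 and at 84.6 in S2. Slc38a2, which encodes the system A carrier SNAT2, had the opposite order, at 15.6, 4.9 and 4.0 TPM. Slc38a7 was at 10.3, 7.6 and 6.3 TPM and Slc38a9, a lysosomal amino acid sensor, at 10.7, 9.0 and 5.8 TPM. Slc38a4 was at 4.7 TPM in S1 and at 0.3 and 0.1 TPM in S2 and S3. Slc38a6 was between 5.0 and 7.8 TPM. Slc38a1, Slc38a5, Slc38a8 and Slc38a11 were below 1 TPM in every segment.

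**Figure D2:**
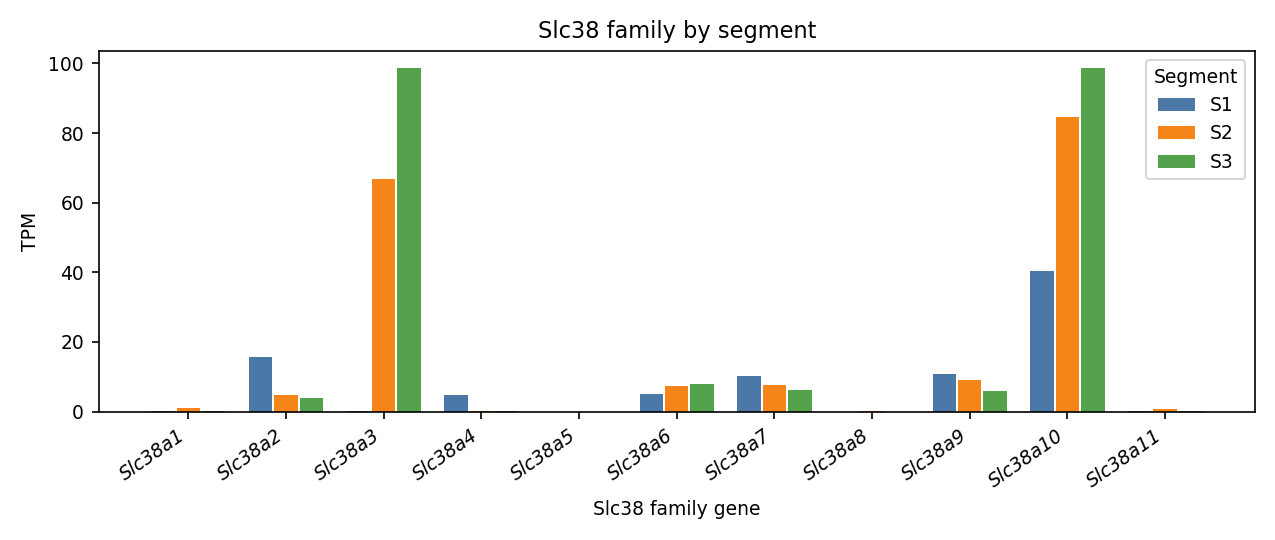
TPM of the 11 Slc38 family genes (bars start at 0, 1 deposited value per segment, no error bars). Slc38a3 and Slc38a10 reach 98.7 TPM in S3, while Slc38a2 is highest in S1 with 15.6 TPM.

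The profiles nearest to Slc38a3 were sought among 7255 candidate genes of at least 10 TPM in some segment. Left out of the candidates were the members, genes without a symbol and symbols of the forms Gm plus digits or Rik. The measure was the distance between log2(TPM + 1) profiles after subtracting each gene's mean over the 3 segments. The nearest was Slc10a2, the sodium-dependent bile acid carrier, at 0.4, 63.2 and 101.3 TPM (distance 0.13). Methig1 followed with 1.5, 151.8 and 214.7 TPM (distance 0.17), then Car5a, a mitochondrial carbonic anhydrase, with 0.1, 67.6 and 81.4 TPM (distance 0.23). These 3 were the only candidates within a distance of 0.25, a measure that rests on 3 values per gene. With S1 values this low, the distances depend on the pseudocount of 1, and they were not recomputed with another.

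Markers of cells other than proximal tubule cells also differed between the segments. The 7 endothelial markers summed to 67.2, 630.2 and 255.4 TPM, and S1 lay below S2 by 2-fold or more for all 7 and below S3 for 5. The 6 immune cell markers summed to 55.0, 244.8 and 46.0 TPM. Both sums were highest in S2, whereas Slc38a3 was highest in S3. Umod, a marker of the thick ascending limb, was at 0.2, 21.1 and 29.1 TPM, in the same order as Slc38a3. Of the other markers in that list of 5, Cldn10 was at 154.9, 292.0 and 283.9 TPM, Slc12a1 lay between 0.3 and 1.0 TPM and Kcnj1 at 0.1. Cldn16 was below 1 TPM in every segment. The list summed to 155.6, 313.5 and 314.2 TPM, most of it Cldn10, so the sum describes Cldn10 and not the list as a whole. The part of such cells in the Slc38a3 values was not tested. In pooled tubules, fewer cells of a type and less RNA per cell cannot be told apart.

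Gls2 encodes the liver-type glutaminase (ENSMUSG00000044005, chromosome 10, 128194635 to 128210004). Its values were 0.3, 0.5 and 0.6 TPM, under the 1 TPM filter in every segment. The values differed by at most 0.3 TPM, a few steps of the table's last digit, and no fold was formed from them. RefSeq places Spryd4 across part of the same region, and reads of the overlap may be shared between both genes.

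Glud1 encodes mitochondrial glutamate dehydrogenase, which turns glutamate into oxoglutarate and ammonia (ENSMUSG00000021794, chromosome 14, 34310727 to 34345033). It was at 133.9 TPM in S1, 111.1 TPM in S2 and 128.5 TPM in S3. The highest segment was 20.5% above the lowest, and no pair of segments came near a 2-fold difference. S1 minus S2 was 0.27 on the log2(TPM + 1) scale and lay between 0.16 and 0.27 over the alternatives. A span this small was uncommon at the deposited scaling, where it was smaller in 10.8% of the 1706 genes that reached 100 TPM in some segment. In each segment the gene stood above at least 91.7% of the genes at 1 TPM or more. The nearest profile was that of Ndufs6, a subunit of respiratory complex I, at 978.6, 814.2 and 941.8 TPM, but 1679 of 7255 candidates lay within a distance of 0.25, so the likeness is shared with many genes. Yipf4 (distance 0.009) and Mettl15 (distance 0.01) came next. The pseudogene Glud-ps was at 0.2 to 0.5 TPM.

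Glul encodes glutamine synthetase, which joins ammonia to glutamate (ENSMUSG00000026473, chromosome 1, 153899929 to 153909723). It was the most abundant member in every segment, at 457.5 TPM in S1, 505.4 TPM in S2 and 432.7 TPM in S3. The highest segment was 16.8% above the lowest. At the deposited scaling this span was smaller than that of all but 7.74% of genes reaching 100 TPM. On the log2(TPM + 1) scale S2 minus S3 was 0.22 and lay between 0.17 and 0.37 over the alternatives. S2 held the highest value and S3 the lowest under every alternative tried, but only the scaling alternatives could change that order. S1 minus S3 lay between 0.02 and 0.16 over the alternatives, so S1 and S3 were nearly tied. The nearest profile to Glul was that of Erlin1, a protein of lipid rafts in the endoplasmic reticulum, at 54.4, 59.7 and 51.2 TPM (distance 0.0082). Atrx (0.021) and Fto (0.022) followed, and 979 candidates lay within a distance of 0.25. The pseudogene Glns-ps1 was at 0.8 to 1.2 TPM. Mir8114 overlaps Glul in RefSeq, and the library kit is not described as keeping the strand.

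Since TPM accounts for transcript length, levels of different genes within a segment can be set side by side. Glul stood at 3.42 times the Glud1 level in S1, 4.55 times in S2 and 3.37 times in S3. Against Slc38a3, Glul was at 7.57 times its level in S2 and 4.38 times in S3, and no ratio was formed in S1, where Slc38a3 was below 1 TPM. The 7 members together summed to 593.5, 685.3 and 661.7 TPM, most of it Glul. Scaling a whole column leaves the ratios within a segment as they are, and they are ratios of messenger RNA and not of enzyme activity.

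The sequence just before the start of transcription is shown for Glul and Glud1, the pair with level and high expression. RefSeq promoter windows matched 4 of the 7 members (Glul, Glud1, Aldh18a1 and Rhcg). Each run is the 250 bases before the start, 5′ to 3′ on the strand of the gene, in build GRCm38.p6. Glul lies at chr1:153899679-153899928 (plus strand) and Glud1 at chr14:34310477-34310726 (plus strand). Capitals mark matches to the 6 short motifs searched on either strand, and a match is a description of letters only.
Glul: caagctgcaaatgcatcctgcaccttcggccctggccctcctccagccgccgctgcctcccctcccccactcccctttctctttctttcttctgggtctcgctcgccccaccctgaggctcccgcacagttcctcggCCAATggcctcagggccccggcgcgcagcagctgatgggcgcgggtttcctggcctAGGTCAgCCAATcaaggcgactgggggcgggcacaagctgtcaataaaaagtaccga
Glud1: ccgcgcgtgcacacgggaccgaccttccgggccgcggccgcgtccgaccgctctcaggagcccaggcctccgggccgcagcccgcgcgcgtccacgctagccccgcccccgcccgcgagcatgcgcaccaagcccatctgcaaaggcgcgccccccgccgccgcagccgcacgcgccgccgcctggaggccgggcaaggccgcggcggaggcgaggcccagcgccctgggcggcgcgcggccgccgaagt
The Glul window held the CCAAT box at bases -113 to -109 and -50 to -46 from the start, and the box was found in 33.8% of all 32851 windows of this length. It also held AGGTCA, a core element of nuclear receptor sites, at bases -57 to -52, beside the nearer box and not overlapping it. That element was found in 14.0% of windows. The Glud1 and Aldh18a1 windows held none of the 6 motifs, and the Rhcg window held TGTTCT, a core element of steroid receptor sites, which was present in 16.1% of windows. The remaining motifs matched no member window. The TATA box was searched as TATAAA and stood in 12.4% of all windows. For HNF4 the letters were CAAAGTCC, present in 1.2% of windows. For ATF4 the letters were TGATGNAA, present in 3.45%. The Glud1 window was 82.0% G and C, above 99.3% of windows, and the Glul window 64.8%, above 82.3%.

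Aldh18a1 encodes pyrroline-carboxylate synthase, which commits glutamate to proline and ornithine (ENSMUSG00000025007, chromosome 19, 40550257 to 40588463). Its values were 1.1, 1.2 and 1.1 TPM, just inside the 1 TPM filter. Its rank was low, above 2.0% of detected genes in S1 and 6.41% in S2. A step of 0.1 TPM is the resolution of the table, so the 3 values cannot be ordered, and the sign of each difference changed among the alternatives (-0.14 to 0.49 for S1 minus S2). Gm15801 overlaps Aldh18a1 in RefSeq, and reads of the overlap may be shared between both genes.

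Rhbg and Rhcg encode the Rh glycoproteins that carry ammonia across the basolateral and the apical membrane of connecting tubule and collecting duct cells. Rhbg (ENSMUSG00000104445, chromosome 3, 88242874 to 88254739) was at 0.4 TPM in S1 and 0.2 TPM in S2 and was listed at 0 in S3. Rhcg (ENSMUSG00000030549, chromosome 7, 79593363 to 79617657) was listed at 0 in S1 and was at 0.1 TPM in S2 and in S3. All 6 values lay below 1 TPM, and no fold was formed from them. Markers of the cells known for these channels were mixed. The 9 markers of intercalated cells summed to 2.2, 2.9 and 1.3 TPM, with Slc4a9 and Aqp6 listed at 0 in every segment. Of the 7 principal cell markers, Aqp3 (28.3, 5.2 and 0.1 TPM) and Fxyd4 (32.3, 7.4 and 0.9 TPM) were highest in S1, while the other 5, Aqp2 among them, were below 1 TPM in every segment. The part of such cells in the Rhbg and Rhcg values was not tested. The 5 distal convoluted and connecting tubule markers summed to 1.4 to 3.6 TPM. The 10 proximal tubule markers summed to 13656.8, 5401.9 and 4906.4 TPM, but they did not share an order. Slc34a1, a phosphate carrier, made up most of the S1 sum, at 10241.1, 2226.8 and 17.0 TPM, and Slc7a12 had the opposite order, at 2.5, 1613.0 and 3047.9 TPM. Of the 10, 3 were at least 2-fold higher in S1 against S2 and 5 were lower.

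**Figure D3:**
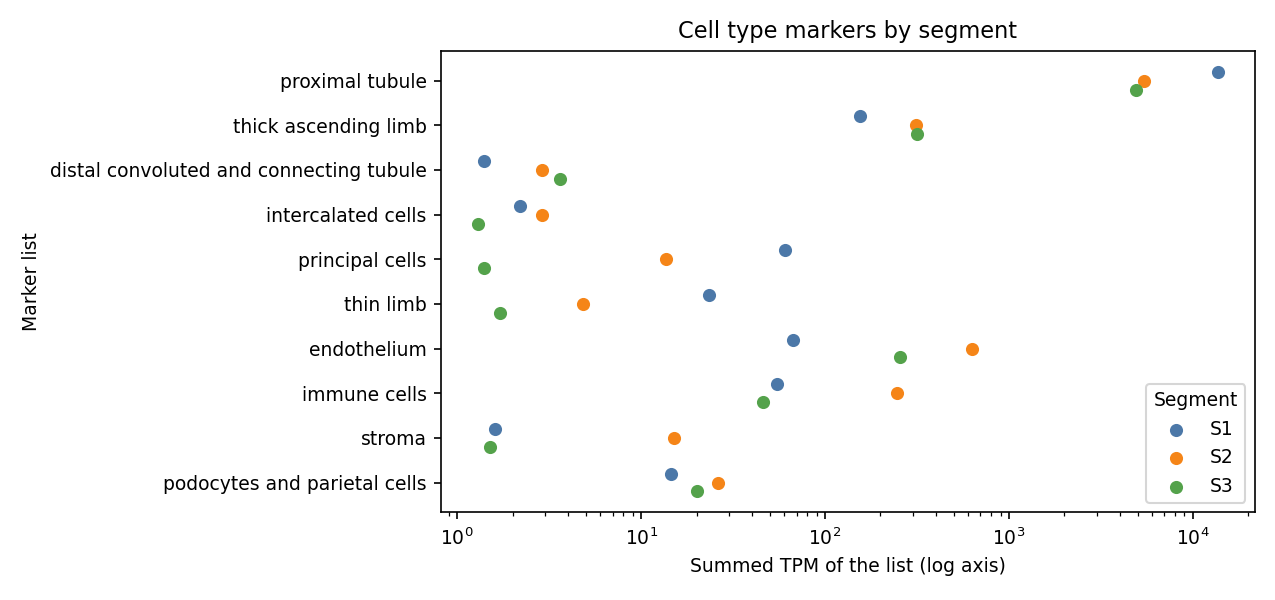
Summed TPM of each cell type marker list in S1, S2 and S3 on a log axis (1 deposited value per gene and segment). Intercalated and distal tubule lists stay at or below 3.6 TPM, and endothelial markers are highest in S2 with 630.2 TPM. The sum of the thick ascending limb list is mostly Cldn10 and does not describe that list as a whole.

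The rest of the pathway was counted in 8 lists with 92 genes besides the members, of which 78 were compared. The lists were chosen with earlier results of these data known, so their counts and medians describe these genes only. Between S1 and S2, 29 of the 78 had the higher level in S1 and 10 in S2, by 2-fold or more, where 6.62% and 17.7% of all compared genes did. Between S1 and S3 the counts were 34 for S1 and 9 for S3, where the shares of all compared genes were 10.5% and 13.1%. Between S2 and S3 they were 14 for S2 and 1 for S3, where the shares were 8.74% and 2.24%. The counts of single lists for S1 and S3 given next are to be read beside the same 10.5% and 13.1%. The median difference of the 78 was 0.48 for S1 minus S2, beside -0.18 over all compared genes. It was 0.70 for S1 minus S3, beside -0.01, and 0.24 for S2 minus S3, beside 0.12. The shares and medians of all compared genes were not matched to the lists by expression level. Detection also differed: S2 had 15121 genes of at least 1 TPM, against 12174 for S1 and 12873 for S3. The all-gene figures are therefore a background only and not the share to be expected of these lists. Slc38a3, by its own values, lay with the smaller number of genes that were lower in S1.

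Other glutamine and glutamate carriers of the cell membrane mostly had the reverse profile. Of 9 compared, 6 were higher in S1 and 2 in S3, and the median S1 minus S3 difference was 2.37. Slc6a19, the apical carrier of neutral amino acids including glutamine, was at 873.8, 19.2 and 15.7 TPM. The basolateral exchanger subunits Slc3a2 (1161.3, 95.1 and 42.6 TPM), Slc7a7 (663.9, 39.2 and 23.7) and Slc7a8 (471.0, 23.1 and 8.5) shared this order. Slc1a5, another glutamine carrier, was lowest in S1, at 2.8, 6.8 and 10.1 TPM. Slc1a1, the glutamate carrier EAAT3, was at 89.9, 125.9 and 191.5 TPM. S1 thus held high transcript levels of apical Slc6a19 and nearly no Slc38a3, and in S2 and S3 the Slc38a3 value exceeded that of Slc6a19.

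Other enzymes that free ammonia included genes of either order. Of 10 compared, 3 were higher in S1 and 1 in S3, and the median S1 minus S3 difference was 0.27. Gldc, the decarboxylase of the glycine cleavage system, was at 161.6, 47.1 and 9.9 TPM, while Gcsh, its carrier protein, was at 277.7, 301.5 and 328.7 TPM. Aspg, an asparaginase, had its highest value in S2, at 0.5, 52.9 and 12.0 TPM. Aspg was the 1 gene of this list at least 2-fold below S3 in S1.

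Genes that use glutamate and oxoglutarate were mostly highest in S1. Of 16, 9 were at least 2-fold above S3 in S1 and 1 below it, and the median difference was 1.30. Psat1, the transaminase of serine synthesis, was at 133.3, 6.9 and 1.0 TPM. The aspartate transaminases Got1 (150.2, 23.2 and 14.3 TPM) and Got2 (167.3, 68.9 and 45.2 TPM) had the same order. Gpt, an alanine transaminase, was the exception at 4.6, 31.5 and 38.4 TPM, whereas its mitochondrial relative Gpt2 was at 45.1, 27.8 and 8.5 TPM. Ogdh, the oxoglutarate dehydrogenase subunit that acts after Glud1, was at 409.6, 135.5 and 124.3 TPM, so that it stood at 3.06 times the Glud1 level in S1 and 0.967 times in S3. Pck1, the cytosolic enzyme that makes phosphoenolpyruvate, stayed within 2-fold, at 2105.4, 2136.3 and 1638.3 TPM. The ratio of Pck1 to Glul was 4.60, 4.23 and 3.79.

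Mitochondrial carriers of glutamate, aspartate and oxoglutarate mostly stayed within 2-fold. Of 6 compared, none differed 2-fold between S1 and S2, and 1, the glutamate carrier Slc25a22, was higher in S1 than in S3 (19.3, 13.4 and 9.1 TPM). With so few genes, the lack of a 2-fold call against S2 says little beside the shares of 6.62% and 17.7%. By its median the list leaned to S1, by 0.64 against S3 and 0.43 against S2. All compared genes had -0.01 and -0.18 there. Slc25a21, which carries oxoglutarate and oxoadipate, was at 10.9, 16.1 and 13.4 TPM.

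**Figure D4:**
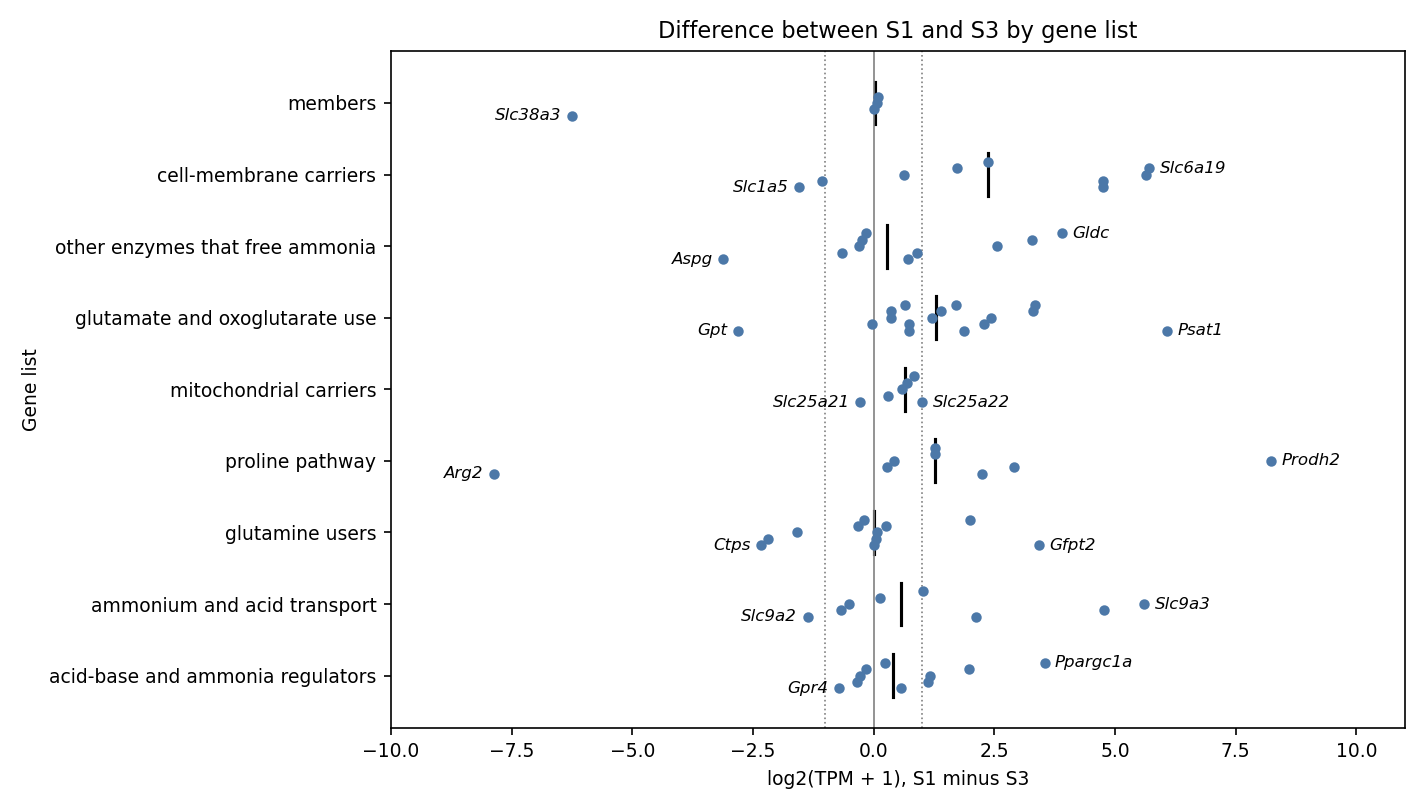
Differences in log2(TPM + 1), S1 minus S3, of the compared genes of each list (points, shifted vertically for view), with the list median as a black bar, dotted lines at 2-fold, and names at the ends of each list. Slc38a3 is at -6.26 while the other 3 compared members lie near 0.

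Most other listed genes of the proline pathway, into which Aldh18a1 feeds, had higher transcript levels than Aldh18a1. Of the 10 listed, 2 were below 1 TPM in every segment. Pycrl, a pyrroline-carboxylate reductase, was at 73.4, 58.3 and 60.9 TPM, and Oat, ornithine aminotransferase, at 427.7, 262.6 and 320.9 TPM, against 1.1 to 1.2 TPM for Aldh18a1. Of 8 compared genes, 5 were higher in S1 and 1 in S3, and the median S1 minus S3 difference was 1.26. Prodh2, the hydroxyproline dehydrogenase, was at 359.1, 93.9 and 0.2 TPM. Arg2, the mitochondrial arginase that supplies ornithine, had the opposite order, at 0.2, 106.9 and 277.9 TPM, a profile of the same order as that of Slc38a3. Arg2 was the 1 pathway gene lower in S2 than in S3.

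Enzymes that use glutamine, mostly as a nitrogen donor, showed no common order, since 2 of 11 were higher in S1 and 3 in S3, and the median S1 minus S3 difference was 0.00. Ctps, CTP synthase, was at 5.3, 22.0 and 30.7 TPM and Asns, asparagine synthetase, at 3.3, 11.5 and 18.5 TPM, both lowest in S1. Gfpt2, which makes glucosamine-phosphate, was at 18.4 TPM in S1 and below 1 TPM in S2 and S3. Cps1, the ammonia-fixing enzyme of the liver urea cycle, was listed at 0 in each segment.

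Ammonium leaves the proximal tubule cell in part through the apical sodium-proton exchanger NHE3, encoded by Slc9a3. Slc9a3 was at 52.5, 11.4 and 0.1 TPM, an order opposite to that of Slc38a3. Slc9a2, a related exchanger, was at 3.3, 11.4 and 10.1 TPM. Of 8 compared genes of ammonium and acid transport, 4 were higher in S1 and 1 in S3, and the median S1 minus S3 difference was 0.57. Among 10 compared regulators 4 were higher in S1 and none in S3, and the median difference was 0.40. Ppargc1a, whose product coactivates genes of mitochondrial biogenesis, had values of 53.7, 14.2 and 3.7 TPM. Atf4, the transcription factor of the amino acid response, was at 29.2, 40.8 and 37.2 TPM. Ptk2b, the kinase Pyk2 linked to acid sensing, was at 26.7, 29.8 and 30.1 TPM, and Cryz, a quinone oxidoreductase that also binds RNA, at 236.6, 204.4 and 200.3 TPM, both within 2-fold throughout.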

How the data were processed

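RNA-seq of 19 libraries from microdissected tubules was analysed; the 24 ATAC-seq libraries of both sexes were not analysed here. The authors deposited TPM, with 1 value per gene and segment rounded to 1 decimal, and the columns sum to 999907, 999988 and 999911 TPM. Per the labels' protocols, cDNA was made with an ultra-low-input kit (10 to 12 PCR cycles, paired reads of 50 bases). The submitters' processing notes name build mm10 and, among other tools without roles, cutadapt, STAR and RSEM. How a column was formed from its 6 or 7 libraries is not given in the sources used. The 5 value columns that match no labelled RNA-seq group were not used.

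Differences are on log2(TPM + 1), pseudocount 1, among genes of at least 1 TPM in some segment; calls are by size (2-fold). TPM keeps no depth, so no interval or floor was computed. The code (Python 3.11.15, pandas 2.3.3) was tested on simulated data. Some listed genes and a motif are not reported here. The members and lists were chosen with earlier results of these data known. All members are named, then Pck1, Ogdh and the 2 genes of each list with the largest and the smallest S1 minus S3 difference among those of at least 10 TPM, and, for each member of at least 10 TPM, genes with the nearest profiles; other genes named (the rest of the Slc38 family, pseudogenes, Got1, Got2, Gpt2, Slc3a2, Slc7a7, Slc7a8, Slc1a1, Gcsh, Pycrl, Oat, Asns, Cps1, Ptk2b and Cryz, and the single cell type markers given with values) were chosen after their values were seen. The 9 alternatives varied the pseudocount, filter, scaling and fold threshold. Coordinates and promoter windows are from RefSeq on GRCm38.p6.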

Additional observations from a re-analysis of the deposited data

How the results depend on the processing

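Of 159 alternative values for the members that passed the filter and for Pck1 and Ogdh, all 159 kept their side of the fold threshold in use and none that was past it turned. The filter alternatives leave a gene's difference and the threshold unchanged, so their values could not move. The 1.5-fold and 3-fold alternatives change the threshold only. The counts of members past the threshold were the same under all 9 alternatives. Of 108 alternative counts of members and pathway genes, 101 stayed within 1.5 times the reported count. The 101 include every count of members, each of them 0 or 1, so they say less about the pathway genes. The counts that did not stay within that limit were all of pathway genes. With pseudocount 0.1, 2 were lower in S2 than in S3, against 1. With pseudocount 5, 4 were lower in S1 than in S2, against 10. A 1.5-fold threshold gave 24 higher and 4 lower in S2 than in S3, and a 3-fold threshold gave 9 and 0, against 14 and 1. The 3-fold threshold also gave 5 lower in S1 than in S2, against 10. A wider or narrower threshold changes such counts by its construction.

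Under the filter at 5 TPM, Aldh18a1 was not compared. No paired analysis was possible because the table gives 1 value per segment and not per library; for the same reason no library could be left out. Depth is unknown, and values near 0.1 TPM are limited by the rounding of the table.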
